A study of Mus musculus with 21 samples.

Results

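The S100 genes encode small calcium-binding proteins of the EF-hand type, and 8 of them were followed here across mouse blood formation: S100a1, S100a4, S100a6, S100a8, S100a9, S100a10, S100a11 and S100a13. They were chosen by name as members of 1 gene family, out of 18217 distinct gene symbols on the array. Each of the 8 was read by 1 probe, and every probe was well above background on all 21 arrays. RNA came from 7 fractions of bone marrow cells of C57BL/6 mice, with 3 arrays per fraction. KLS cells, the multipotent fraction, were lineage-negative and positive for Kit and Sca1. The erythroid route ran from PreMegE (lineage-negative, Kit+, CD150+, CD105-, Fc gamma receptor-negative) through CFUe (CD150-, CD105-, Fc gamma receptor-negative) to Ter119 (CD71+ and Ter119+). The myeloid route ran from PreGM (CD150-, CD105-, Fc gamma receptor-negative) through GMP (CD150-, Fc gamma receptor-positive) to Mac1Gr1 (Mac1+ and Gr1+). The labels list the same surface markers for CFUe and PreGM, give Sca1 as positive for PreMegE, CFUe, PreGM and GMP as well as for KLS, and give neither sex nor age. No allele or agent was applied in any fraction. Nothing in the labels says that the 3 arrays of a fraction came from separate animals, so the p-values measure the spread between these arrays, which may be technical.

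Most S100 proteins work as dimers that change shape when they bind calcium and then grip a partner protein. S100A10 is an exception, since it no longer binds calcium and holds annexin A2 without it. S100A8 and S100A9 join to form calprotectin, which fills the cytoplasm of neutrophils and can act outside the cell through TLR4 and the receptor RAGE. S100A10 and S100A11 bind annexins at membranes, S100A4 binds non-muscle myosin, S100A6 (calcyclin) binds several annexins and the calcyclin-binding protein, S100A1 is best known in muscle, and S100A13 takes part in the release of FGF1. All 8 genes lie on mouse chromosome 3. In the order of the RefSeq table of the assembly GRCm38.p6, S100a1 and S100a13 were direct neighbours among protein-coding genes, as were S100a8 and S100a9, and S100a11 and S100a10. One further protein-coding gene lay between S100a4 and S100a6 and 1 between S100a6 and S100a8, while 56 lay between S100a9 and S100a11.

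S100a8 and S100a9 had nearly the same pattern across the fractions, so the sequence before each start site is shown. RefSeq promoter windows of assembly GRCm38.p6 were given for 7 of the 8 genes, the exception being S100a10. The 250 bases before the annotated start are printed for S100a8 (chr3:90668821-90669070, plus strand) and S100a9 (chr3:90695722-90695971, minus strand), with the letters of matched motifs in capitals.
S100a8: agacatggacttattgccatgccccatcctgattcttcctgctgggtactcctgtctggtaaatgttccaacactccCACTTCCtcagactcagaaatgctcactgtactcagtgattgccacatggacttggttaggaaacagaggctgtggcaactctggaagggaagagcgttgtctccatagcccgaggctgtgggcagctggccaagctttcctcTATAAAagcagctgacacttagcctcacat
S100a9: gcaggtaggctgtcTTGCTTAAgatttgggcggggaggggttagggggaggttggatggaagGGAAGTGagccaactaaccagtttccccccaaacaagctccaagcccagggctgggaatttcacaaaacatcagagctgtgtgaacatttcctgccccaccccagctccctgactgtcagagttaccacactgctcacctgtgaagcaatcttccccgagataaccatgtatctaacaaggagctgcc
The first capitals in S100a8 are a match on the opposite strand to GGAAGTG, a core bound by the myeloid factor PU.1, at 173 to 167 bases before the start. The later capitals are TATAAA, at 30 to 25 bases before it. In S100a9 the capitals mark TTGCNNAA, the consensus of C/EBP factors where N stands for any base, at 236 to 229 bases before the start, and the PU.1 core at 188 to 182 bases before it. Both strands were searched over the same 250 bases in 32851 promoters. The PU.1 core was present in 8.55% of all promoters and in 2 of the 7 members, S100a8 and S100a9. This C/EBP pattern was present in 9.56% and in 1 member. The TATA letters were present in 12.4% and in 2 members, S100a4 and S100a8. The letters AGATAAG, a core bound by GATA1 and its relatives, were present in 2.74% and in 1 member, S100a11, at 249 to 243 bases before its start. A match is a stretch of letters and not a measured binding site.

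Values are given as levels, log2 array signals from which that array's own 75th percentile was taken, so that a level of 0 equals that percentile and a step of 1 is a 2-fold step in signal. A level compares 1 gene between fractions and not 1 gene with another. A difference was called at an adjusted p under 0.05 in limma, adjusted over the 29532 probes tested, together with a change of at least 2-fold. In a bulk sample, fewer cells of a type and less RNA per cell cannot be told apart.

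The arrays were of 2 kinds, which touched several S100 results. On 11 arrays Y-linked transcripts were present (mean level -1.51 to -0.86) and Xist was low (-7.77 to -6.09), and on the other 10 the Y-linked transcripts were low (-7.68 to -6.46) and Xist was high (1.54 to 3.03). All arrays of KLS, PreMegE and Ter119 were of the Y-linked kind, and all arrays of GMP and Mac1Gr1 were of the Xist kind. CFUe and PreGM each had 2 Xist arrays, numbers 1 and 2, and 1 Y-linked array, number 3. Several S100 results that rest on CFUe or PreGM are therefore also given within arrays of 1 kind, an alternative chosen after seeing the data. In that fit a lone array is assumed to vary like those of the other fractions. Other S100 results that rest on CFUe or PreGM are given over all arrays only. So are the differences between fractions of genes outside the family. Ter119 and Mac1Gr1 share no kind, so that kind and fraction cannot be told apart between them. The same holds for GMP or Mac1Gr1 against KLS, PreMegE or Ter119 in the order of fractions by level.

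The terminal fractions carried transcripts of other cell types. All 9 erythroid markers were well above background on the Ter119 arrays, where 60.8% to 67.2% of all probes were. All 9 were called higher there than in Mac1Gr1, where 22.0% of all probes were. All 13 granulocytic markers with a probe, among them Ltf, Ngp and Camp, were also well above background on all 3 Ter119 arrays. None of these 13 markers was at background in Ter119, where the lowest mean was 1.81 (Elane) and the highest 9.07 (Ltf). The mean level over the 12 granulocytic markers with a value on all arrays ran from 5.62 to 5.80 in Ter119 and from 6.35 to 6.57 in Mac1Gr1. It ran from -0.66 to -0.01 in GMP and from -4.47 to -2.47 in CFUe. That mean hides opposite moves within the list. From GMP to Mac1Gr1 9 of 13 were called higher and 4 lower, where 29.1% and 27.6% of all probes were. The highest marker mean in GMP was 9.19. The 9 B cell markers averaged 2.91 to 3.35 in Ter119 and 0.71 to 1.44 in Mac1Gr1, and all 9 were also called higher in Ter119. The 12 macrophage and monocyte markers averaged 0.57 to 0.63 in Ter119, 1.17 to 1.45 in Mac1Gr1 and 0.65 to 1.78 in KLS.

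Calprotectin transcripts were low to moderate in the early fractions, rose in large steps along the myeloid route and were highest in the terminal fractions of both routes. S100a8 stood at 2.47, 2.38 and 2.79 in KLS and at 3.06, 2.68 and 2.65 in PreMegE. In CFUe it stood at -0.23, -0.25 and 2.28, and in PreGM at 0.11, -0.23 and 3.07. In GMP it reached 7.10, 6.88 and 6.88, in Mac1Gr1 9.95, 9.99 and 10.12, and in Ter119 10.74, 10.48 and 10.35. The 9 arrays of GMP, Mac1Gr1 and Ter119 all lay above the 12 arrays of the other fractions, and in CFUe and PreGM the third array, the one with Y-linked transcripts, stood apart from the other 2. S100a8 was 62.6-fold higher in GMP than in PreGM (log2 difference 5.97 ± 0.68 (SE), adjusted p = 5.32e-06). It was 8.37-fold higher in Mac1Gr1 than in GMP (3.07 ± 0.68, adjusted p = 0.00059). From CFUe to Ter119 the difference was 9.92 ± 0.68, or 969-fold (adjusted p = 5.59e-10).

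S100a9 followed the same course. Its levels were 3.53, 3.78 and 4.24 in KLS, 4.10, 3.91 and 4.08 in PreMegE, 1.28, 1.20 and 3.83 in CFUe, and 1.74, 1.14 and 4.46 in PreGM. They were 7.27, 6.88 and 6.78 in GMP, 9.97, 10.05 and 10.26 in Mac1Gr1, and 11.14, 10.73 and 10.55 in Ter119. As with S100a8, the third CFUe and PreGM arrays were the high ones, and the GMP, Mac1Gr1 and Ter119 arrays did not overlap those of the early fractions. S100a9 rose 23.2-fold from PreGM to GMP (4.53 ± 0.68, adjusted p = 0.000102), 8.65-fold from GMP to Mac1Gr1 (3.11 ± 0.68, adjusted p = 0.00056) and 416-fold from CFUe to Ter119 (8.70 ± 0.68, adjusted p = 3.52e-09). With spike-in scaling the rise from GMP to Mac1Gr1 was no longer called for S100a8 (1.03, adjusted p = 0.102) or S100a9 (1.08, adjusted p = 0.0912).

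**Figure D1:**
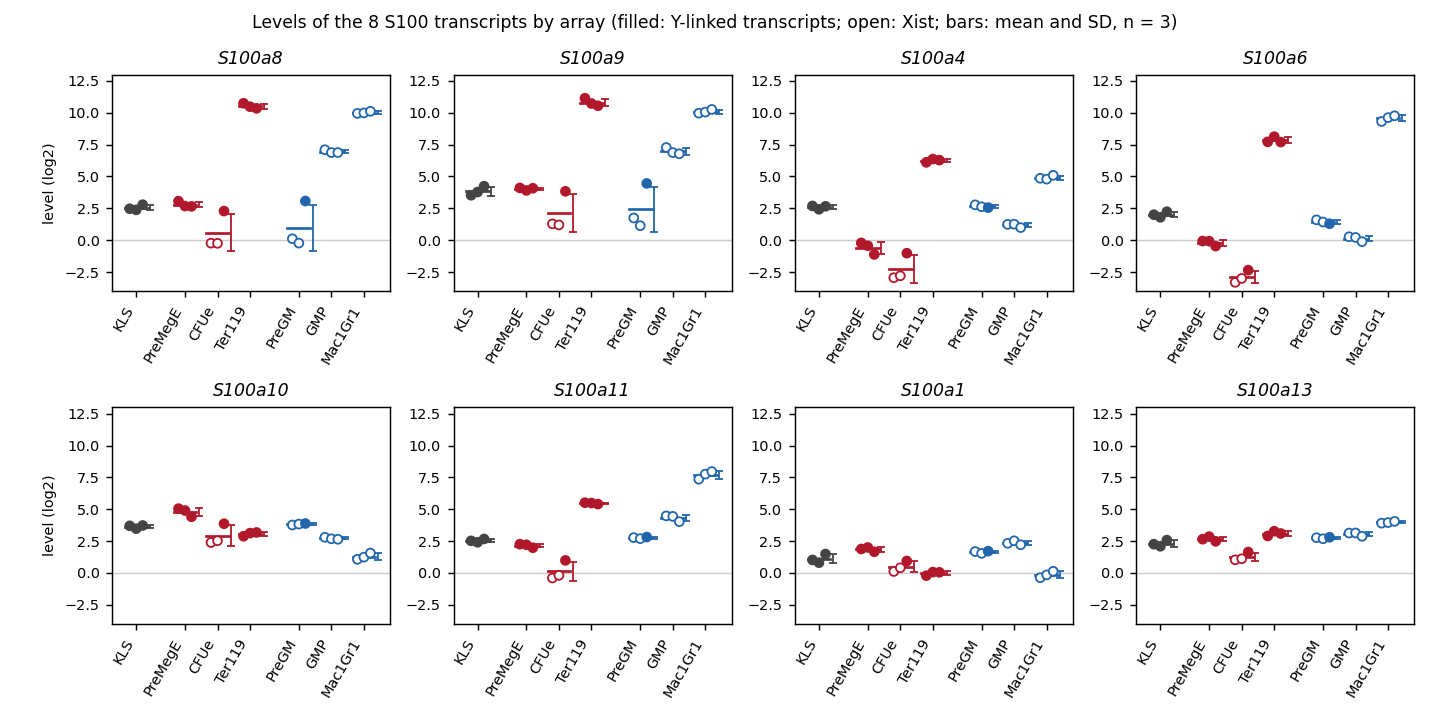
Level (log2, 0 is the array's 75th percentile) of each of the 8 S100 genes on the 21 arrays, by fraction: KLS in grey, the erythroid route in red, the myeloid route in blue; filled points are arrays with Y-linked transcripts, open points arrays with Xist, and bars give the mean and SD of 3 arrays. S100a8 and S100a9 split by kind of array in CFUe and PreGM and stand above 6.7 in GMP, Ter119 and Mac1Gr1, while S100a1 and S100a10 do not rise in the terminal fractions.

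On levels set by each array's own percentile, the highest means of S100a8 and S100a9 were those of Ter119, followed by Mac1Gr1. The differences of 0.50 ± 0.68 (adjusted p = 0.526) and 0.71 ± 0.68 (adjusted p = 0.372) were not called, but this SE is shared by all fractions and takes in the spread within CFUe and PreGM. On these levels no array of one fraction overlapped the other. In a limma fit of these fractions alone the SE was 0.15 and 0.19 (adjusted p = 0.0201 and 0.0132), with both differences under 2-fold. The percentile itself was lower on the Ter119 arrays (log2 7.61 to 8.19) than on the Mac1Gr1 arrays (8.43 to 8.65). Spike-in scaling shifted the median of all probes between these fractions by -0.72, more than either difference. The order of Ter119 and Mac1Gr1 for S100a8 and S100a9 therefore depends on the scaling. The 13 granulocytic markers differed between the same fractions by a median of -0.70, with 2 called higher in Ter119 and 4 lower, where 22.0% and 19.9% of all probes were. From CFUe to Ter119 all 13 were called higher, with a median of 10.7, as were 9 of 9 B cell markers and 12 of 12 macrophage and monocyte markers, where 29.2% of all probes were called higher. The part of these cell types in the S100 levels of Ter119 was not tested.

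Within CFUe and within PreGM, the 1 Y-linked array was set against the 2 Xist arrays as a description, with no test, since the split was found in these data and has a lone array on one side. In CFUe the Y-linked array stood above both Xist arrays for all 8 members, where 41.0% of all probes did. The difference from the Xist mean was 2.52 for S100a8, 2.59 for S100a9, 1.85 for S100a4, 1.40 for S100a10, 1.28 for S100a11, 0.80 for S100a6, 0.68 for S100a1 and 0.57 for S100a13. In PreGM it stood above both for 6 of 8, where 39.4% of all probes did, by 3.13 for S100a8 and 3.02 for S100a9 and by no more than 0.10 for the other 4. S100a4 and S100a6 gave -0.14 and -0.22 there.

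The same split was described for markers of several cell types. Over all probes, 41.0% stood above both Xist arrays in CFUe and 39.4% in PreGM. Of the granulocytic markers, 13 of 13 stood above both Xist arrays in CFUe (median difference 2.48) and 10 of 13 in PreGM (median 1.25). Ltf differed by 2.77 and 3.66, Ngp by 2.48 and 2.93, Camp by 2.66 and 2.97, and Lcn2 by 3.51 and 2.28, in CFUe and PreGM respectively. In CFUe so did 8 of 9 sorting antigens (median 1.75; Cd34 4.14), 9 of 12 macrophage and monocyte markers (0.94), 6 of 9 B cell markers (0.70), 5 of 8 mast cell, basophil and eosinophil markers (0.84), 5 of 8 megakaryocyte markers (0.47) and 6 of 9 erythroid markers (0.11). In PreGM the counts were 5 of 9 (0.11), 5 of 12 (0.07), 5 of 9 (0.20), 6 of 8 (0.88), 6 of 8 (0.32) and 7 of 9 (0.56) in the same order. The macrophage and monocyte count in PreGM was near the share of all probes. Only 1 of 12 macrophage and monocyte markers was well above background on all CFUe arrays. Of the mast cell, basophil and eosinophil markers 2 of 8 were, so both medians in CFUe rest largely on dim signals. The part of these cell types in the split was not tested.

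**Figure D2:**
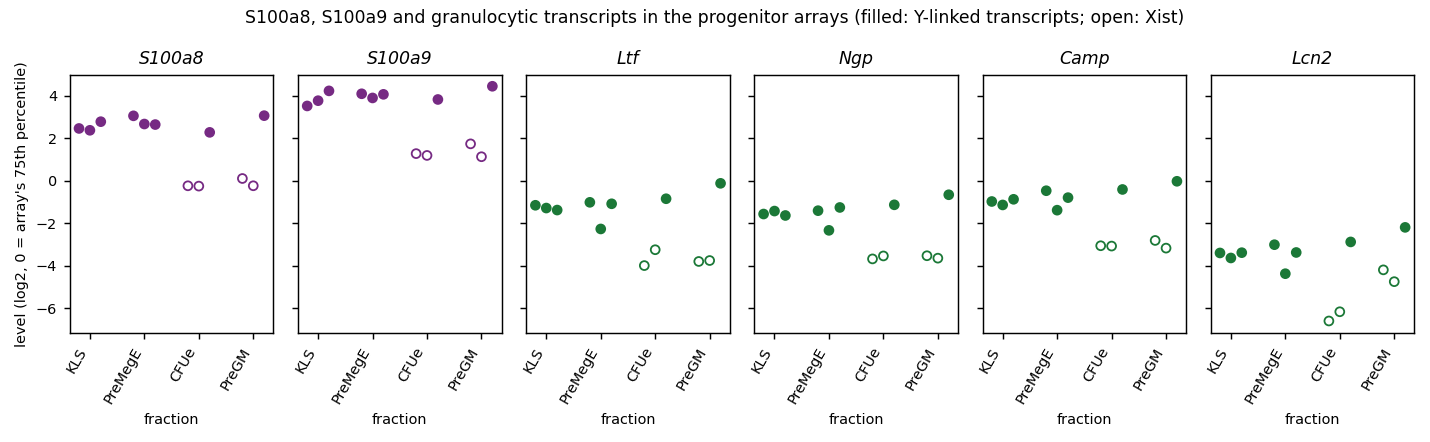
Level (log2, 0 is the array's 75th percentile) of S100a8, S100a9 and the granulocytic genes Ltf, Ngp, Camp and Lcn2 on the arrays of KLS, PreMegE, CFUe and PreGM, with a point for each array (filled with Y-linked transcripts, open with Xist). The open points of CFUe and PreGM lie below the filled point of the same fraction for all 6 genes.

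Where the comparison crosses kinds, S100a8 and S100a9 gave other values within 1 kind. S100a8 was lower in CFUe than in PreMegE over all arrays (log2 difference -2.20 ± 0.68, adjusted p = 0.0123), but the difference was -0.51 ± 0.21 on the Y-linked arrays (adjusted p = 0.0700). For S100a9 the values were -1.92 ± 0.68 (adjusted p = 0.0269) and -0.19 ± 0.29 (adjusted p = 0.655). On slide 9, the only slide that held both fractions, the pair of arrays was of unlike kinds and differed by -3.31 for S100a8 and -2.90 for S100a9. Against KLS, PreGM stood at -1.56 ± 0.68 for S100a8 (adjusted p = 0.105) and at 0.53 ± 0.21 within the Y-linked kind (adjusted p = 0.117). S100a9 gave -1.40 ± 0.68 (adjusted p = 0.150) and 0.61 ± 0.29 (adjusted p = 0.198). Without PreGM replicate 3, both were called lower in PreGM than in KLS, at -2.61 (adjusted p = 0.00167) and -2.41 (adjusted p = 0.0045), and without CFUe replicate 3, S100a8 was also called (-1.56, adjusted p = 0.0459). The rises into GMP and Ter119 were called within 1 kind as well, but with other sizes. On Xist arrays S100a8 and S100a9 rose by 7.01 ± 0.17 and 5.54 ± 0.23 from PreGM to GMP, against 5.97 and 4.53 over all arrays. On Y-linked arrays they rose by 8.24 ± 0.21 and 6.97 ± 0.29 from CFUe to Ter119, against 9.92 and 8.70.

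S100a4 and S100a6 were at middling levels in KLS, fell into the erythroid progenitors and rose in both terminal fractions. KLS also carried macrophage and monocyte markers, which averaged 0.65 to 1.78 there and -4.44 to -3.41 in PreMegE. From KLS to PreMegE 11 of 12 were called lower and 0 higher (median -5.89), where 8.86% of all probes were called lower. From KLS to PreGM 8 were called lower and 4 higher, where 6.53% and 2.11% of all probes were. The part of these cell types in the falls out of KLS was not tested. S100a4 stood at 2.69, 2.43 and 2.66 in KLS, at -0.21, -0.44 and -1.12 in PreMegE, and at -2.94, -2.79 and -1.02 in CFUe. It stood at 6.11, 6.37 and 6.28 in Ter119, 2.77, 2.62 and 2.56 in PreGM, 1.24, 1.26 and 0.99 in GMP, and 4.86, 4.79 and 5.09 in Mac1Gr1. PreGM overlapped KLS, while PreMegE lay below both. PreMegE was 9.07-fold below KLS (-3.18 ± 0.35, adjusted p = 2.56e-06) and 9.46-fold below PreGM (-3.24 ± 0.35, adjusted p = 2.38e-06). The further difference from PreMegE to CFUe was -1.66 ± 0.35 (adjusted p = 0.000791), with overlapping arrays, and -0.43 ± 0.26 within the Y-linked kind (adjusted p = 0.223). From CFUe to Ter119 it rose 363-fold (8.51 ± 0.35, adjusted p = 9.51e-13), and by 7.27 ± 0.26 within the Y-linked kind.

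On the myeloid route S100a4 fell from PreGM to GMP (-1.49 ± 0.35, adjusted p = 0.0046) and rose 13.5-fold from GMP to Mac1Gr1 (3.75 ± 0.35, adjusted p = 3.64e-08). It is 1 of the 2 members called higher in Ter119 than in Mac1Gr1 (1.34 ± 0.35, adjusted p = 0.00308). That call was lost with spike-in scaling (0.61, adjusted p = 0.130) and with a term for Y-linked transcripts (0.48, adjusted p = 0.364). Spike-in scaling also ended the fall into GMP (-0.47, adjusted p = 0.214).

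S100a6 had the widest range of the 8, with 12.45 on the log2 scale between the lowest and the highest fraction mean. It stood at 2.0, 1.79 and 2.23 in KLS, at -0.07, -0.08 and -0.46 in PreMegE, and at -3.31, -3.0 and -2.35 in CFUe. Ter119 gave 7.72, 8.13 and 7.70, PreGM 1.60, 1.43 and 1.29, GMP 0.27, 0.21 and -0.12, and Mac1Gr1 9.32, 9.62 and 9.76. All 3 Mac1Gr1 arrays lay above all Ter119 arrays, and all 3 CFUe arrays lay below those of every other fraction. S100a6 fell from KLS to PreMegE (-2.21 ± 0.22, adjusted p = 5.96e-07) and again from PreMegE to CFUe (-2.68 ± 0.22, adjusted p = 2.83e-08), a fall that was called within the Y-linked kind as well (-2.15 ± 0.25, adjusted p = 9.36e-06). It rose by 10.73 ± 0.22 from CFUe to Ter119 (adjusted p = 6.57e-16). From GMP to Mac1Gr1 it rose 695-fold (9.44 ± 0.22, adjusted p = 2.1e-15), after a fall from PreGM to GMP (-1.31 ± 0.22, adjusted p = 0.000231) that spike-in scaling ended (-0.30, adjusted p = 0.335).

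The annexin-binding members went separate ways. S100a11 rose along the myeloid route, from 2.78, 2.69 and 2.82 in PreGM to 4.48, 4.44 and 4.03 in GMP and 7.36, 7.76 and 7.96 in Mac1Gr1. It stood at 2.52, 2.41 and 2.67 in KLS, 2.26, 2.21 and 1.98 in PreMegE, -0.39, -0.18 and 0.99 in CFUe, and 5.52, 5.49 and 5.41 in Ter119. CFUe was the lowest fraction with no overlap, and Mac1Gr1 the highest. The rises were 1.56 ± 0.26 from PreGM to GMP (adjusted p = 0.000253), 3.37 ± 0.26 from GMP to Mac1Gr1 (adjusted p = 2.47e-09) and 5.33 ± 0.26 from CFUe to Ter119 (adjusted p = 6.44e-12). S100a11 fell from PreMegE to CFUe (-2.02 ± 0.26, adjusted p = 5.44e-06; -1.16 ± 0.22 within the Y-linked kind, adjusted p = 0.000704), and was 4.66-fold lower in Ter119 than in Mac1Gr1 (-2.22 ± 0.26, adjusted p = 1.02e-06).

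S100a10, the annexin A2 partner, was highest in PreMegE. It stood at 5.05, 4.90 and 4.41 there, at 3.70, 3.48 and 3.73 in KLS, 2.40, 2.53 and 3.87 in CFUe, and 2.88, 3.13 and 3.18 in Ter119. Along the myeloid route it stood at 3.77, 3.84 and 3.88 in PreGM, 2.80, 2.68 and 2.65 in GMP, and 1.07, 1.24 and 1.56 in Mac1Gr1. No PreMegE array overlapped another fraction, and no Mac1Gr1 array did so at the low end. S100a10 was 2.22-fold higher in PreMegE than in KLS (1.15 ± 0.28, adjusted p = 0.0049), a call lost with spike-in scaling (0.69, adjusted p = 0.137), with a block for the slide (1.51, adjusted p = 0.0630) and, by its size alone, with the series table (0.98, adjusted p = 0.00774). It fell from PreMegE to CFUe (-1.86 ± 0.28, adjusted p = 2.85e-05), though within the Y-linked kind the difference was under 2-fold (-0.92 ± 0.23, adjusted p = 0.00489). It fell at both later myeloid steps, into GMP (-1.12 ± 0.28, adjusted p = 0.00648) and into Mac1Gr1 (-1.42 ± 0.28, adjusted p = 0.000193). The first of these was lost with spike-in scaling (-0.10, adjusted p = 0.761), the slide block (-1.03, adjusted p = 0.0956) and, by its size, the term for Y-linked transcripts (-0.87, adjusted p = 0.0119). S100a10 was the other member called higher in Ter119 than in Mac1Gr1 (1.77 ± 0.28, adjusted p = 2.88e-05).

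S100a1 and S100a13 are genomic neighbours. Their 300-base promoter windows, on opposite strands, overlap by 204 bases. S100a1 stood at 1.02, 0.81 and 1.49 in KLS, 1.88, 2.0 and 1.67 in PreMegE, 0.12, 0.41 and 0.94 in CFUe, and -0.21, 0.07 and 0.05 in Ter119. It stood at 1.68, 1.54 and 1.71 in PreGM, 2.33, 2.53 and 2.21 in GMP, and -0.37, -0.15 and 0.13 in Mac1Gr1. Its levels were highest in GMP and lowest in the terminal fractions, which overlapped. S100a1 fell 5.60-fold from GMP to Mac1Gr1 (-2.48 ± 0.20, adjusted p = 5.52e-09). From PreMegE to CFUe it fell (-1.36 ± 0.20, adjusted p = 2.62e-05); within the Y-linked kind the difference was -0.91 ± 0.25 (adjusted p = 0.00941), which is under 2-fold.

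S100a13 was highest in Mac1Gr1 and lowest in CFUe. The CFUe arrays gave 1.03, 1.12 and 1.64, and the Mac1Gr1 arrays 3.91, 3.96 and 4.05. The other 15 arrays ran between, from 2.10 in KLS to 3.28 in Ter119, so that neither end overlapped them. S100a13 fell from PreMegE to CFUe (-1.40 ± 0.16, adjusted p = 1.98e-06; -1.02 ± 0.20 within the Y-linked kind, adjusted p = 0.000797). From CFUe to Ter119 it rose 3.55-fold (1.83 ± 0.16, adjusted p = 1.89e-08), a call lost with spike-in scaling (0.45, adjusted p = 0.126). From GMP to Mac1Gr1 its difference was 0.92 ± 0.16 (adjusted p = 7.39e-05), under the 2-fold minimum, and spike-in scaling turned it to -1.11 (adjusted p = 0.000628).

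**Figure D3:**
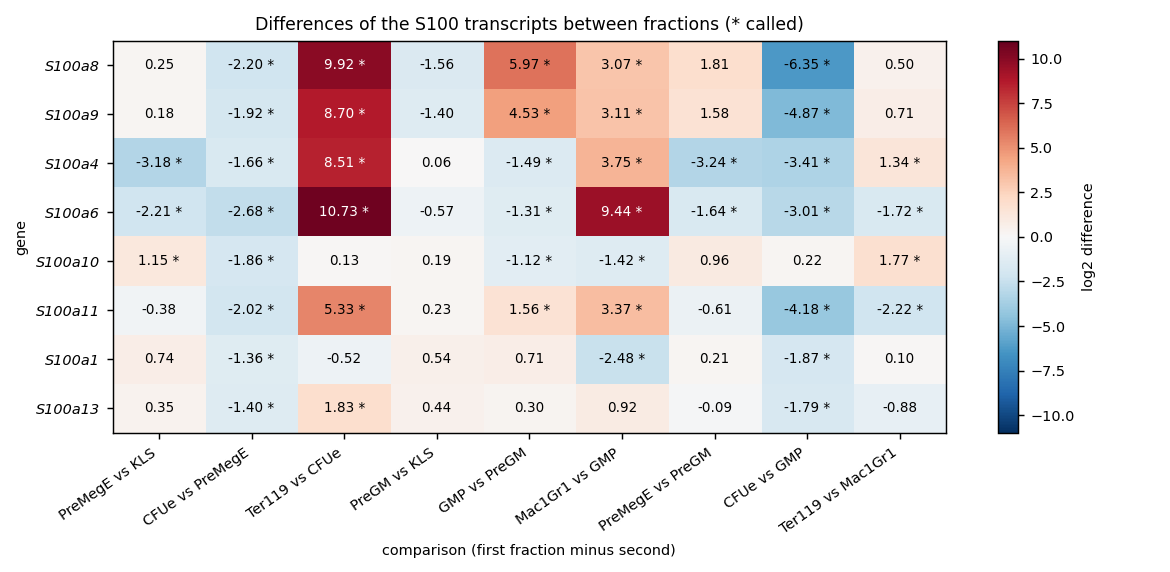
Log2 difference of each S100 gene in the 9 comparisons, first fraction minus second, with colour from blue (lower) to red (higher) and an asterisk where the difference was called (adjusted p under 0.05 and at least 2-fold). The column CFUe vs PreMegE is negative for all 8 genes, and the columns Ter119 vs CFUe and Mac1Gr1 vs GMP hold the largest values, 10.73 and 9.44 for S100a6.

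The first steps out of KLS were counted over the family. From KLS to PreMegE 1 of 8 was called higher (S100a10) and 2 lower (S100a4 and S100a6), where 12.4% of all probes were called, 3.55% higher and 8.86% lower. From KLS to PreGM 0 of 8 were called by limma, where 8.64% of all probes were called, 2.11% higher and 6.53% lower. In the same limma fit 4 of 8 had an unadjusted p under 0.05. The share of all probes at that threshold was not counted, so no excess of members can be read from it. Leaving out 1 array moved the count called between 0 and 2, and spike-in scaling raised it. PreMegE and PreGM, the first fractions of each route, differed in 2 of 8 members, both lower in PreMegE (S100a4 and S100a6), with 12.0% of all probes called, 5.81% higher and 6.23% lower. S100a8 (1.81 ± 0.68, adjusted p = 0.0575) and S100a9 (1.58 ± 0.68, adjusted p = 0.102) were not called between them and stood at -0.27 ± 0.21 (adjusted p = 0.445) and -0.43 ± 0.29 (adjusted p = 0.383) within the Y-linked kind. On slide 3, which held 1 array of each fraction, both of the Y-linked kind, the differences were -0.42 and -0.38. On slide 2, with a Y-linked PreMegE and an Xist PreGM array, they were 2.57 and 2.16.

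**Figure D4:**
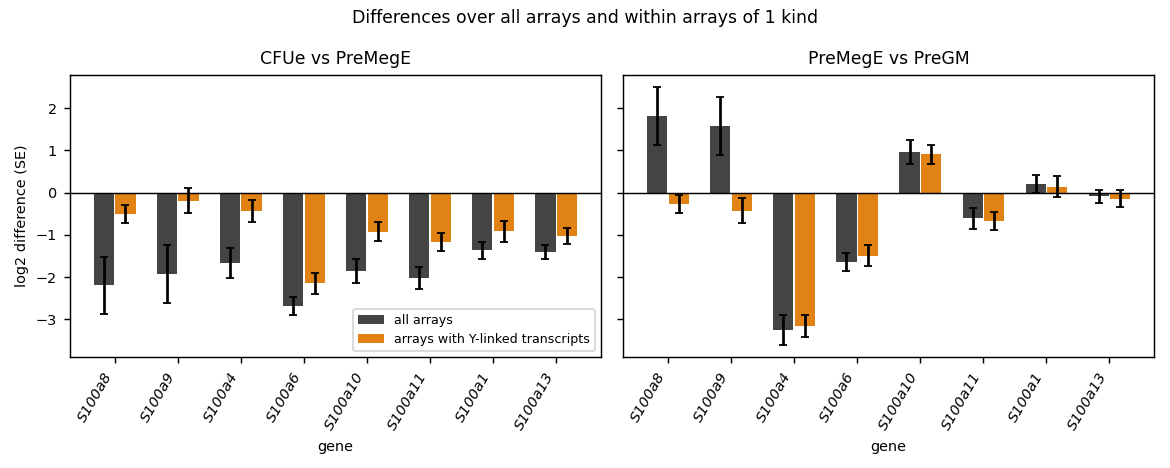
Log2 difference with SE of the 8 S100 genes for CFUe vs PreMegE (left) and PreMegE vs PreGM (right), over all arrays (grey) and within the arrays that carry Y-linked transcripts (orange). S100a8 and S100a9 move from -2.20 and -1.92 to -0.51 and -0.19 on the left and from 1.81 and 1.58 to -0.27 and -0.43 on the right, while S100a4 and S100a6 on the right stand at -3.24 and -1.64 over all arrays and at -3.15 and -1.49 within the kind.

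The second erythroid step moved the family downward. From PreMegE to CFUe 8 of 8 were called lower, with a median of -1.89, where 24.7% of all probes were called, 9.96% higher and 14.7% lower, and the median over all probes was 0.12. Within the Y-linked kind 3 of 8 were called, S100a6, S100a11 and S100a13, where 21.4% of all probes were. From CFUe to Ter119 6 of 8 were called higher and none lower (median 6.92), where 57.2% of all probes were called, 29.2% higher and 28.0% lower. S100a1 (-0.52 ± 0.20, adjusted p = 0.0282) and S100a10 (0.13 ± 0.28, adjusted p = 0.674) were the members not called.

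On the myeloid route the members divided. From PreGM to GMP 3 of 8 were called higher (S100a8, S100a9 and S100a11) and 3 lower (S100a4, S100a6 and S100a10), where 10.4% of all probes were called, 4.01% higher and 6.36% lower. Every member kept its sign and the same 6 were called within the Xist kind, where 11.1% of all probes were, and on slide 2, which held an array of each, the differences ran from -1.53 for S100a4 to 6.99 for S100a8. From GMP to Mac1Gr1 5 of 8 were called higher and 2 lower (S100a1 and S100a10), with a median of 3.09, where 56.7% of all probes were called, 29.1% higher and 27.6% lower. S100a4 and S100a6 thus fell at the second myeloid step and rose at the third.

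Between the routes, CFUe lay below GMP in 7 of 8 members (26.3% of all probes called, 12.1% higher and 14.2% lower), from -6.35 ± 0.68 for S100a8 to -1.79 ± 0.16 for S100a13, and the same 7 were called on the Xist arrays alone, where 26.8% of all probes were. S100a10 was the exception (0.22 ± 0.28, adjusted p = 0.527). Between Ter119 and Mac1Gr1 2 of 8 were called higher (S100a4 and S100a10) and 2 lower (S100a6 and S100a11), where 41.9% of all probes were called, 22.0% higher and 19.9% lower. S100a13 differed by less than 2-fold (-0.88 ± 0.16, adjusted p = 0.000163). With a term for Y-linked transcripts, S100a8 and S100a9 were called lower in Ter119 than in Mac1Gr1 (-2.32, adjusted p = 7.58e-07, and -2.09, adjusted p = 2.81e-05), but that term rests on CFUe and PreGM, the fractions with both kinds.

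The change at a step was also compared between the routes, as the erythroid difference minus the myeloid one. At the second step it passed an adjusted p of 0.05 for 6 of 8 members, where 34.2% of all probes did, and was negative for each. The largest were -8.16 ± 0.96 for S100a8 (adjusted p = 5.19e-06) and -6.46 ± 0.97 for S100a9 (adjusted p = 6.5e-05). S100a4 (-0.17 ± 0.50, adjusted p = 0.824) and S100a10 (-0.74 ± 0.39, adjusted p = 0.165) did not pass. At the third step all 8 passed, where 55.0% of all probes did, and all were positive, from 0.91 ± 0.23 for S100a13 (adjusted p = 0.00309) to 6.85 ± 0.96 for S100a8 (adjusted p = 1.31e-05). With each change taken within arrays of 1 kind, 6 of 8 passed at the second step, where 27.0% of all probes did, with S100a4 in place of S100a6 (1.11 ± 0.33, adjusted p = 0.0234), and 5 of 8 at the third, where 49.3% did, without S100a6 (0.76, adjusted p = 0.0523), S100a10 (0.62, adjusted p = 0.0821) and S100a13 (0.53, adjusted p = 0.0815).

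Ordered by fraction mean, CFUe was the lowest fraction for 6 members and Mac1Gr1 for S100a1 and S100a10. Kind of array and fraction cannot be told apart where neighbours share no kind, as for GMP with PreMegE. The means of S100a8 fell in the order Ter119, Mac1Gr1, GMP, PreMegE, KLS, PreGM, CFUe, and neighbours from PreMegE down were not past the threshold with the SE shared by all fractions (adjusted p of 0.821, 0.105 and 0.661). S100a9 had the same order, with adjusted p of 0.876, 0.150 and 0.701 at those places. For both genes the order of Ter119 and Mac1Gr1 depends on the scaling, as given above. The single Y-linked PreGM array stood at 3.07 for S100a8 and 4.46 for S100a9, above every KLS and PreMegE array. For S100a4 only PreGM and KLS, next to each other in the order, missed the threshold (0.06 ± 0.35, adjusted p = 0.927). For S100a6 KLS and PreGM (0.57 ± 0.22, adjusted p = 0.0635) and GMP and PreMegE (0.33 ± 0.22, adjusted p = 0.240) missed it too.

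Among the other members, for S100a10 the run PreGM, KLS, Ter119, CFUe and GMP held 4 neighbouring pairs, none of which differed (adjusted p from 0.0744 to 0.674). For S100a11 PreGM and KLS (0.23 ± 0.26, adjusted p = 0.578) and KLS and PreMegE (0.38 ± 0.26, adjusted p = 0.305) missed the threshold. For S100a13 the run Ter119, GMP, PreGM, PreMegE and KLS held 4 such pairs (adjusted p from 0.129 to 0.833). For S100a1 the pairs of GMP with PreMegE (adjusted p = 0.0513), PreMegE with PreGM (adjusted p = 0.527), PreGM with KLS (adjusted p = 0.0615) and Ter119 with Mac1Gr1 (adjusted p = 0.680) missed it.

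The likeness of the members was described by Pearson's r over the 7 fraction means, which share their arrays. The neighbours S100a8 and S100a9 were the most alike, with r = 0.998, and S100a4 with S100a6 reached 0.93. The neighbours S100a11 and S100a10 gave -0.67 and the neighbours S100a1 and S100a13 gave -0.14. S100a13 was instead closest to S100a11 (0.94). S100a1 and S100a10 had an r above 0 only with each other (0.57).

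**Figure D5:**
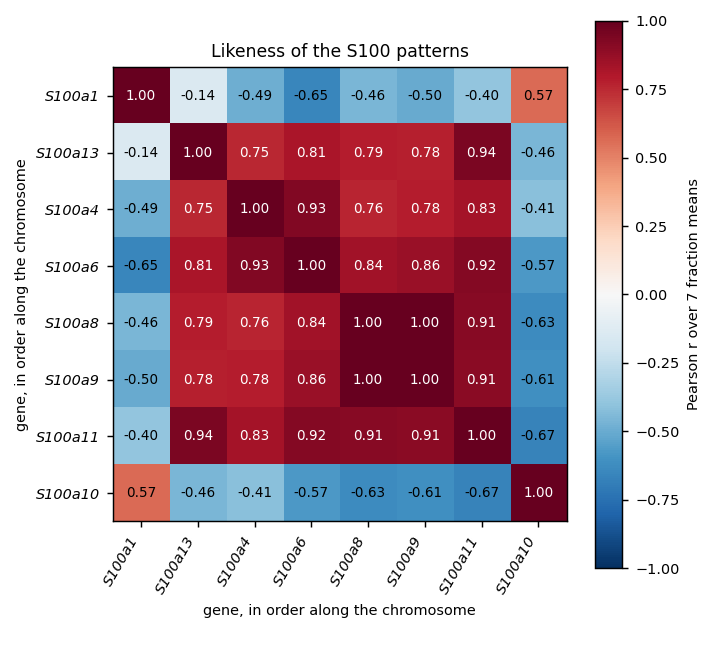
Pearson's r between the 8 S100 genes over the 7 fraction means, with genes in their order along the chromosome on both axes and colour from -1 (blue) to 1 (red). S100a13, S100a4, S100a6, S100a8, S100a9 and S100a11 form a block from 0.75 to 0.998, and S100a1 and S100a10 stand outside it, with r of 0.57 between them.

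Outside the family, the genes most like each member were taken from 14116 genes by r over the 21 arrays. S100a8 and S100a9 shared the same closest gene, Wfdc21 (0.991 and 0.984). S100a8 was next closest to Fcnb (0.969) and Prss34 (0.964), and S100a9 to Chil3 (0.968) and Lcn2 (0.961). S100a6 was closest to Pirb (0.985), Lgals3 (0.984) and Marchf1 (0.983), and S100a4 to Grap (0.971), Clec2i (0.960) and Csf1 (0.958). S100a11 was closest to Rac2 (0.993), Ralb (0.991) and Csf2ra (0.989), and S100a13 to Twf2 (0.991), Arhgdib (0.975) and Arpc1b (0.972). S100a1 was closest to Prodh (0.970), Icam2 (0.950) and Cgas (0.943), and S100a10 to Masp2 (0.942), Lrrc66 (0.932) and Micall2 (0.927).

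The receptors and binding partners of S100 proteins, a list of 18 genes, were all tested. From CFUe to Ter119 12 of 18 were called higher (66.7%) and 2 lower (11.1%), against 29.2% and 28.0% of all probes, with a median of 1.83. From GMP to Mac1Gr1 10 were higher (55.6%) and 3 lower (16.7%), against 29.1% and 27.6%, with a median of 1.22. From PreMegE to CFUe 4 were higher and 5 lower (22.2% and 27.8%, against 9.96% and 14.7%), and in CFUe against GMP 1 was higher and 6 lower (5.56% and 33.3%, against 12.1% and 14.2%). Into PreMegE 0 were higher and 4 lower (22.2% lower, against 8.86%), and into PreGM 0 and 3 (16.7% lower, against 6.53%). From PreGM to GMP 2 were higher and 0 lower (11.1% higher, against 4.01%). PreMegE against PreGM gave 0 and 3 (16.7% lower, against 6.23%), and Ter119 against Mac1Gr1 3 and 7 (16.7% and 38.9%, against 22.0% and 19.9%).

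Annexin A2, the partner of S100A10, did not follow S100a10. Anxa2 fell from PreMegE to CFUe (-2.56 ± 0.16, adjusted p = 1.9e-09), as S100a10 did, but rose from CFUe to Ter119 (5.78 ± 0.16, adjusted p = 1.34e-14) and from GMP to Mac1Gr1 (4.39 ± 0.16, adjusted p = 2.52e-13), where S100a10 stood at 0.13 and -1.42. Anxa1, an annexin bound by S100A11, fell from PreMegE to CFUe (-4.67 ± 0.37, adjusted p = 2.46e-08). It rose from PreGM to GMP (1.78 ± 0.37, adjusted p = 0.0018), GMP to Mac1Gr1 (3.63 ± 0.37, adjusted p = 1.13e-07) and CFUe to Ter119 (8.82 ± 0.37, adjusted p = 1.18e-12). S100a11 also fell or rose at these steps. The other annexins of the list, Anxa2, Anxa5, Anxa6 and Anxa11, were not called from PreGM to GMP, and Anxa6 was called at none of these steps. In CFUe the Y-linked array differed from the Xist mean by 1.94 for Anxa1 and 0.71 for Anxa2. Myh9, the heavy chain of the non-muscle myosin bound by S100A4, rose from CFUe to Ter119 (1.91 ± 0.14, adjusted p = 1.04e-09) and from GMP to Mac1Gr1 (2.65 ± 0.14, adjusted p = 1.35e-11).

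Of the receptors, Tlr4 rose from PreGM to GMP (2.24 ± 0.34, adjusted p = 0.000102) and from GMP to Mac1Gr1 (2.72 ± 0.34, adjusted p = 1.27e-06). In PreGM the Y-linked array differed from the Xist mean by 1.58 for Tlr4. None of the CFUe arrays had Tlr4 well above background, and it was higher in Ter119 by at least 3.31 on the log2 scale, against the lowest signal well above background (adjusted p = 2.11e-10). Cd36, a scavenger receptor, rose from CFUe to Ter119 (5.67 ± 0.56, adjusted p = 6.88e-08). Cacybp, the calcyclin-binding protein, moved against S100a6 at the terminal steps, falling from CFUe to Ter119 (-3.52 ± 0.12, adjusted p = 9.66e-14) and from GMP to Mac1Gr1 (-3.19 ± 0.12, adjusted p = 2.92e-13).

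Of 9 other genes with an S100 name, 8 had a probe and 5 were tested. S100a3 rose at both terminal steps, from CFUe to Ter119 (2.38 ± 0.30, adjusted p = 1.63e-06) and from GMP to Mac1Gr1 (2.78 ± 0.30, adjusted p = 2.44e-07). It stood at -0.73, -0.22 and -0.90 in Ter119 and at -0.55, -0.66 and -0.21 in Mac1Gr1, above every array of the other fractions. S100a7a was well above background on no GMP array and on all 3 Mac1Gr1 arrays, a rise of at least 1.41 on the log2 scale (adjusted p = 1.74e-09). S100a5, S100b and S100pbp, the S100P-binding protein gene, were not called in any of the 9 comparisons, and S100a14, S100a16 and S100g were not well above background on all 3 arrays of any fraction. Of 14 calmodulin and other EF-hand genes, 4 were called higher from CFUe to Ter119 (28.6%), a share near the 29.2% of all probes, and 1 lower (7.14%, against 28.0%). From GMP to Mac1Gr1 9 were higher (64.3%, against 29.1%) and 0 lower, and in Ter119 against Mac1Gr1 1 was higher and 9 lower (7.14% and 64.3%, against 22.0% and 19.9%).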

How the data were processed

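Total RNA of 21 samples, 3 for each of 7 sorted fractions, was labelled with 1 dye and hybridised to whole mouse genome arrays. The scanner files deposited by the authors hold background-corrected spot intensity on a linear scale from Agilent Feature Extraction (version 10.7.1.1 per the file headers). The deposited series table holds log2 values normalized by the authors between arrays and served as an alternative; the methods name limma for normalization, and how this table was made is not given in the sources used here. All arrays were scanned on 1 day, over 9 slides.

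Levels were log2 intensity minus each array's 75th percentile over 43379 spots that were not controls. Between 80 and 283 outlier spots an array were left out, and none was saturated. Spots of a probe were averaged (41174 probes), and a probe was tested if some fraction had it well above background on each of its 3 arrays (29532 probes). Between 56.4% and 77.4% of probes were well above background on an array; the number of arrays limits the precision. Probes were named from RefSeq accessions (GRCm38.p6 table, 26690 probes with a symbol); the arrays' own annotation uses mm9, so the coordinates printed are those of the RefSeq promoter windows alone.

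Differences were tested with limma 3.58.1 (lmFit, eBayes, two-sided) in R 4.3.3, with a mean for each fraction over all arrays, and p-values were Benjamini-Hochberg adjusted over the probes tested within each of 9 comparisons. A fold in the text is 2 to the power of the log2 difference. Where no array of a fraction was above background, the dim side was set to the lowest signal well above background, or its own if higher. The test was checked on simulated data for CFUe vs KLS over 29532 probes. Of 200 probes changed by 2 on the log2 scale, 165 were called (82.5%), with 6 false calls. CFUe vs KLS is not among the 9 comparisons, so the check does not cover them. The 8 members are always named. Further genes come from lists of other S100 genes, receptors and binding partners, EF-hand genes and markers of erythroid, granulocytic, macrophage, B, mast and megakaryocytic cells and sorting antigens, or are the 3 genes with the highest Pearson's r to a member. Members and lists were chosen with earlier results of these data known. Alternatives were quantile and spike-in scaling, normexp background (offset 50), no filter on dim probes, the slide or the replicate number as a block, a term for Y-linked transcripts, the series table, no minimum fold, 1 row per gene, the compared fractions alone, an intensity trend, leaving out each array, and arrays of 1 kind. Figures were drawn with matplotlib.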

Additional observations from a re-analysis of the deposited data

Results flagged for a closer look

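The second step differed between the routes for 6 of the 8 S100 genes, where 34.2% of all probes did. It was tested as the change from PreMegE to CFUe minus the change from PreGM to GMP in the same limma fit. The log2 differences were -2.07 for S100a1, -1.37 for S100a6, -8.16 for S100a8, -6.46 for S100a9, -3.57 for S100a11 and -1.70 for S100a13, each lower on the erythroid side. The third step, the change from CFUe to Ter119 minus the change from GMP to Mac1Gr1, differed for all 8, where 55.0% of all probes did. These values were 1.97 for S100a1, 4.75 for S100a4, 1.29 for S100a6, 6.85 for S100a8, 5.59 for S100a9, 1.55 for S100a10, 1.96 for S100a11 and 0.91 for S100a13, each higher on the erythroid side. CFUe and GMP each enter both steps with opposite signs, so the same CFUe and GMP arrays carry part of both sets of values. Within arrays of 1 kind several of these values were smaller, as given above. Groups of 3 arrays were too small for a test of single outlying arrays.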

How the results depend on the processing

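Most values kept their direction and their side of the threshold: of 2968 values of single genes under an alternative, 2836 did, 35 lost a call, 38 gained one, 14 changed sign with a call or a main difference of at least 2-fold, and 45 changed sign below that size. The total leans on settings that could move little. Of the values, 1848 came from leaving out 1 array, which cannot move a difference between fractions that keep all arrays. Another 88 came from 1 row per gene, though each member had 1 probe. The count kept was lowest with spike-in scaling, 54 of 88, and was 71 of 88 with the term for Y-linked transcripts. Spike-in scaling shifted the median of all probes by amounts that ran, over the 9 comparisons, from -2.03 in Mac1Gr1 vs GMP to 1.02 in GMP vs PreGM; relative to 75th percentile scaling it turned S100a10 to -1.25 in Ter119 vs CFUe and to -1.16 in CFUe vs GMP, and S100a13 to -1.11 in Mac1Gr1 vs GMP. The term for Y-linked transcripts turned S100a8 and S100a9 to 0.32 and 0.47 in PreGM vs KLS, to -0.0713 and -0.29 in PreMegE vs PreGM, and to -2.32 and -2.09 in Ter119 vs Mac1Gr1. Within arrays of 1 kind, chosen after seeing the data, the same genes stood at 0.53 and 0.61 in PreGM vs KLS and at -0.27 and -0.43 in PreMegE vs PreGM, and S100a4 at 1.11 in the second-step difference between routes. The count of members called moved from 8 to 3 in CFUe vs PreMegE and from 8 to 5 in the third-step difference within arrays of 1 kind, from 0 to 3 in PreGM vs KLS with spike-in scaling, and from 2 to 4 in PreMegE vs PreGM with quantile scaling, spike-in scaling and the series table. With quantile scaling, spike-in scaling and the series table the share of all probes called was not counted, so those counts cannot be set against it. The cause was not tested.

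Leaving out 1 array gave 0 to 2 members in PreGM vs KLS (1 without CFUe replicate 3 and 2 without PreGM replicate 3), 2 to 4 in PreMegE vs PreGM (4 without either of those arrays), 6 to 8 in CFUe vs PreMegE (6 without CFUe replicate 1 or 2) and 6 to 8 in the second-step difference (8 without CFUe replicate 3). In the other 7 counts it changed none. The replicate numbers do not pair the samples: same-numbered arrays deviated with a correlation between -0.43 and 0.37 (median 0.002), and 7 of 21 arrays correlated best with their own number. With the replicate number as a block, 8 of 8 members were called in CFUe vs PreMegE and 3 in PreMegE vs PreGM, and no other count changed. Each member had 1 probe, so the alternative of another probe could not be run, and Ter119 vs Mac1Gr1 could not be taken within 1 kind of array.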
